A study of Mus musculus with 8 samples.

Results

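The transcripts of 8 genes that mark mouse monocytes were measured in lung tissue by RNA sequencing. They were 4 genes of classical monocytes (*Ly6c2*, *Plac8*, *F13a1* and *Vcan*) and 4 genes of patrolling monocytes (*Nr4a1*, *Cx3cr1*, *Treml4* and *Spn*). The genes were taken by symbol, through the Ensembl identifiers of the count files, and are 8 of the 55416 genes listed there. All 8 passed the filter on low counts, which left 18560 genes for testing.

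Lungs came from female C57BL/6J mice aged 6 to 8 weeks and were taken at 24 h, with the lung of 1 side used for RNA. The 3 control mice received DMSO into the tail vein and then saline into the peritoneum. The 3 LPS mice received lipopolysaccharide, a bacterial endotoxin, at 35 mg/kg. The 2 dual-treated mice received YW3-56, an inhibitor of protein arginine deiminases, at 10 mg/kg in DMSO, 0.5 h before LPS at 35 mg/kg. The methods name no DMSO for the LPS mice, and the abstract has them given LPS only. So a part of DMSO cannot be told apart in LPS against control. The same holds for the dual treatment against LPS, where DMSO is mixed with YW3-56. The methods give 3 mice per group for sequencing, while a figure legend of the paper and the labels both give 2 dual-treated mice. Mouse numbers follow the labels, with 1, 2 and 4 for control, 1, 6 and 7 for LPS and 2 and 5 for the dual treatment. Total counts ran from 19061949 to 20908608 per library.

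Classical monocytes leave the bone marrow through the chemokine receptor CCR2 and enter inflamed tissue. Patrolling monocytes crawl along the inner wall of blood vessels, carry much of the fractalkine receptor CX3CR1, and depend on the nuclear receptor NR4A1, which is also an immediate early gene product of many other cells. None of the genes is limited to monocytes in lung, and in bulk tissue fewer cells of a type and less RNA per cell cannot be told apart.

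Some libraries stood apart from the others of their group. Genes of squamous epithelium summed to 668 CPM (counts scaled to library size by the TMM method) in LPS mouse 6 and 1933 CPM in LPS mouse 7, against 0.653 CPM in LPS mouse 1 and at most 3.38 CPM in the other 5 libraries. Genes of skeletal muscle summed to 449 and 1166 CPM in LPS mice 6 and 7, and to at most 17.7 CPM in the remaining libraries. Within these lists the highest mean CPM over the 8 libraries, set by LPS mice 6 and 7, was that of the keratin gene *Krt13* and of the actin gene *Acta1*. *Krt16* and *Sprr3* had no count in any control library. In dual-treated mouse 2 the immunoglobulin gene *Ighm* stood at 1294 CPM, against 57.6 to 107 CPM in the other 7 mice. In every library a list of 6 genes of lung epithelium was led by the club cell gene *Scgb1a1*. Its genes summed to 62337 to 68544 CPM in control, 66292 to 89044 CPM in LPS and 35831 and 49764 CPM in dual-treated lungs. Both dual-treated mice were below all other mice, and the part of this in the 8 genes was not tested.

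After LPS, 7 of the 8 genes rose and *Cx3cr1* fell. A change was called when the Benjamini-Hochberg adjusted p-value of edgeR's quasi-likelihood test, over all 18560 genes, was under 0.05. By this criterion 32.6% of all tested genes rose and 33.9% fell after LPS, so calls were common at large. The median log2 fold change was 3.47 over the classical genes and 1.52 over the patrolling genes, against -0.01 over all tested genes. After the dual treatment, 6 of the 8 genes rose against control, while 9.13% of all tested genes rose and 7.02% fell. The 6 were the 4 classical genes, *Treml4* and *Spn*. The median log2 fold change was 3.29 over all 4 classical and 2.12 over all 4 patrolling genes, with 0.00 over all tested genes. In both directions together 16.1% of all tested genes were called, and 8.43% to 9.7% when a control mouse was left out. When the dual treatment was compared with LPS, *F13a1*, *Cx3cr1*, *Treml4* and *Spn* were higher and *Vcan* and *Nr4a1* lower. In that comparison 31.7% of all tested genes were higher and 27.4% lower. The comparisons share libraries, so their values are given side by side and are not independent.

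**Figure D1:**
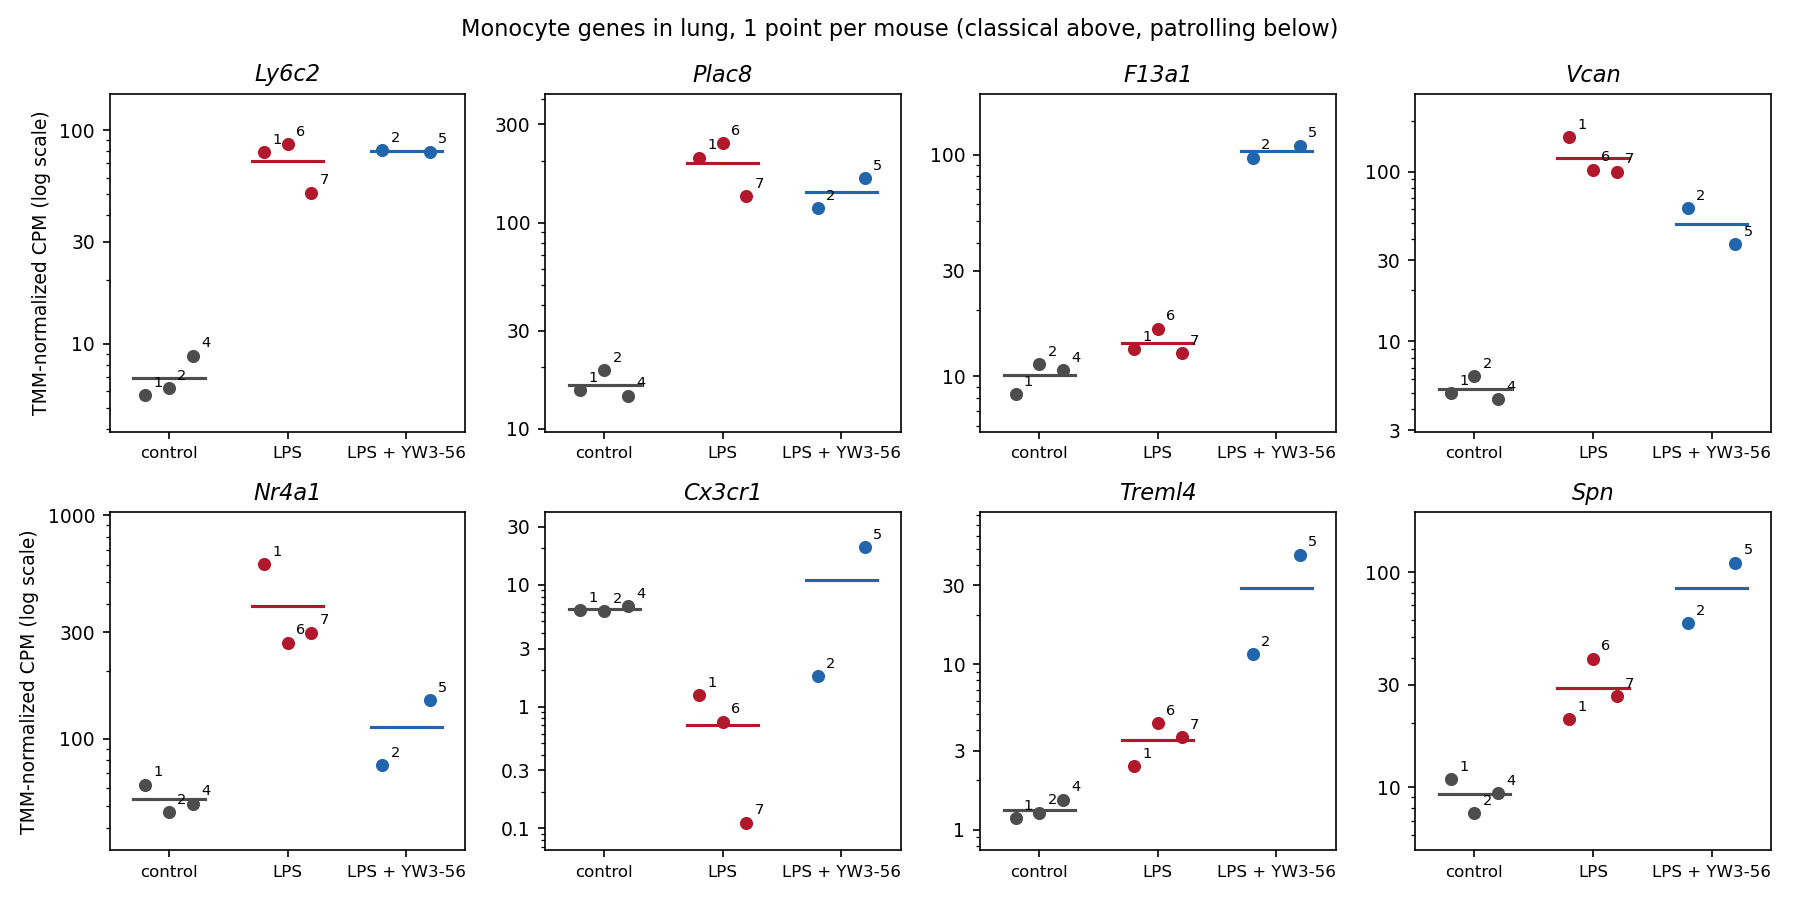
Level of each of the 8 monocyte genes in each lung, as TMM-normalized CPM on a log axis, with 1 point per mouse, mouse numbers beside the points and a line at each group mean. *F13a1* reached 96.8 and 110 CPM only in the dual-treated mice, and *Cx3cr1* parted the 2 dual-treated mice, at 1.77 and 20.3 CPM.

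Of the classical genes, *Ly6c2* encodes the surface antigen Ly6C by which the subset is sorted. It stood at 5.77, 6.19 and 8.83 CPM in control mice 1, 2 and 4, at 78.6, 85.9 and 50.9 CPM in LPS mice 1, 6 and 7, and at 80.4 and 79.3 CPM in dual-treated mice 2 and 5. Every treated mouse was above every control mouse, and the dual-treated mice lay within the range of the LPS mice. Its log2 fold change against control was 3.37 ± 0.23 (SE) after LPS (adjusted p = 2.27e-06) and 3.52 ± 0.24 after the dual treatment (adjusted p = 3.95e-05). Between the dual treatment and LPS it was 0.15 ± 0.22 (adjusted p = 0.569), with a 95% interval from -0.41 to 0.72 on the log2 scale. Its neighbour *Ly6c1*, a close paralog known from endothelium, was at 436 to 458 CPM in control, 693 to 939 CPM in LPS and 996 to 1449 CPM in dual-treated lungs. How reads shared by the paralogs were assigned is not given in the sources used here, so the split between *Ly6c1* and *Ly6c2* is uncertain.

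*Plac8*, which encodes a small cysteine-rich protein, had a pattern close to that of *Ly6c2*. It was at 15.4, 19.3 and 14.5 CPM in the control mice, at 207, 244 and 135 CPM in LPS mice 1, 6 and 7, and at 118 and 165 CPM in dual-treated mice 2 and 5. The treated groups overlapped each other and were clear of the control mice. The log2 fold change was 3.57 ± 0.24 after LPS (adjusted p = 2.42e-06) and 3.11 ± 0.25 after the dual treatment (adjusted p = 9.45e-05), both against control. From LPS to the dual treatment it was -0.46 ± 0.24 (adjusted p = 0.128), with a 95% interval from -1.09 to 0.16. Without LPS mouse 7 that difference passed the threshold, at -0.68 (adjusted p = 0.0131, from 0.0131 to 0.637 over 16 alternatives).

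*F13a1*, the gene of the catalytic subunit of coagulation factor XIII, followed another course. Its level was 8.32, 11.4 and 10.7 CPM in the control mice and 13.2, 16.4 and 12.7 CPM in LPS mice 1, 6 and 7. In dual-treated mice 2 and 5 it was 96.8 and 110 CPM. Both dual-treated mice were far above all 6 other mice, and the LPS mice lay just above the control mice without overlap. The log2 fold change was 3.35 ± 0.16 for the dual treatment against control (adjusted p = 9.39e-06) and 2.87 ± 0.16 against LPS (adjusted p = 3.12e-06). For LPS against control it was 0.48 ± 0.15 (adjusted p = 0.0169). This small rise was no longer called with library sizes alone (0.20), without control mouse 1 (0.36), without LPS mouse 6 (0.37) or without LPS mice 6 and 7 (0.39). A long non-coding gene on the other strand, *Gm30489*, shares 74 exonic bases with *F13a1*, or 1.09% of its exonic length.

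*Vcan* encodes versican, a large proteoglycan of the extracellular matrix. It was at 4.94, 6.24 and 4.55 CPM in the control mice, at 160, 103 and 100 CPM in LPS mice 1, 6 and 7, and at 61.1 and 37.3 CPM in dual-treated mice 2 and 5. No mouse of one group reached into another. The log2 fold change was 4.53 ± 0.27 for LPS against control (adjusted p = 1.34e-06), the highest of the 8 genes. It was 3.23 ± 0.27 for the dual treatment against control (adjusted p = 0.000121) and -1.30 ± 0.26 for the dual treatment against LPS (adjusted p = 0.00214). Set against LPS lungs, the dual-treated lungs thus had less *Vcan* and more *F13a1* among the classical genes.

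Of the patrolling genes, *Nr4a1* encodes the transcription factor of the subset. Its level was 62.3, 46.8 and 51.3 CPM in the control mice, 605, 269 and 298 CPM in LPS mice 1, 6 and 7, and 75.9 and 149 CPM in dual-treated mice 2 and 5. LPS mouse 1 was the highest, and the 3 groups did not overlap. Its log2 fold change was 2.87 ± 0.35 for LPS against control (adjusted p = 7.18e-05) and -1.80 ± 0.39 for the dual treatment against LPS (adjusted p = 0.00329). Without LPS mice 6 and 7, which leaves 1 LPS mouse, these values were 3.51 and -2.43. The dual treatment against control gave 1.07 ± 0.36 (adjusted p = 0.0751), which missed the threshold. Without dual-treated mouse 5 it was 0.48, and without mouse 2 it was 1.45. It passed in 6 of the 16 alternatives, with adjusted p-values from 0.000834 to 0.445.

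*Cx3cr1*, the fractalkine receptor gene, was at 6.21, 6.10 and 6.71 CPM in the control mice. In LPS mice 1, 6 and 7 it fell to 1.25, 0.751 and 0.112 CPM, which are 21, 13 and 2 counts. In the dual-treated mice it was 1.77 CPM in mouse 2 and 20.3 CPM in mouse 5. All LPS mice were below all control mice, whereas one dual-treated mouse was below and the other above the control mice. The log2 fold change was -3.18 ± 0.87 for LPS against control (adjusted p = 0.00927) and 3.97 ± 0.91 for the dual treatment against LPS (adjusted p = 0.00453). For the dual treatment against control it was 0.80 ± 0.78 (adjusted p = 0.538), with a 95% interval from -1.21 to 2.80. Without dual-treated mouse 5 it was -1.87 against control and 1.32 against LPS, and neither was called (adjusted p = 0.109 and 0.149). Without dual-treated mouse 2 it was 1.65 and 4.83. Without LPS mouse 1 the values that involve LPS were -3.87 and 4.66, and both were called. Without LPS mice 6 and 7 they were -2.34 and 3.14, and neither was called (adjusted p = 0.152 and 0.0825). Over the 15 alternatives, the adjusted p-values ran from 4.67e-06 to 0.152 for LPS against control, from 0.0929 to 0.720 for the dual treatment against control and from 3.19e-07 to 0.149 for the dual treatment against LPS.

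*Treml4* encodes a receptor of the TREM family. It was at 1.17, 1.27 and 1.52 CPM in the control mice, at 2.43, 4.39 and 3.63 CPM in LPS mice 1, 6 and 7, and at 11.6 and 46.1 CPM in dual-treated mice 2 and 5. The 3 groups did not overlap, and dual-treated mouse 5 was 3.99 times as high as mouse 2. The log2 fold change was 4.44 ± 0.52 for the dual treatment against control (adjusted p = 0.000689) and 3.05 ± 0.49 against LPS (adjusted p = 0.000565). Both were still called without dual-treated mouse 5, at 3.10 and 1.70, and without mouse 2, at 5.09 and 3.69, which leaves 1 dual-treated mouse assumed to vary like the other groups. The rise after LPS, 1.40 ± 0.50 (adjusted p = 0.0312), rested on few counts, between 24 and 76 in the 6 libraries. It was not called when control mouse 1, 2 or 4, or LPS mouse 6 or 7, was left out (1.32, 1.36, 1.51, 1.20 and 1.38), when both LPS mice 6 and 7 were (0.88), or with library sizes alone (1.12).

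*Spn*, the gene of the sialomucin CD43, stood at 11.0, 7.60 and 9.38 CPM in the control mice and at 20.8, 39.6 and 26.6 CPM in LPS mice 1, 6 and 7. In dual-treated mice 2 and 5 it was 57.9 and 111 CPM. The groups were ordered control, LPS and dual treatment without overlap. Its log2 fold change was 1.64 ± 0.29 for LPS against control (adjusted p = 0.000854), 3.18 ± 0.32 for the dual treatment against control (adjusted p = 0.000294) and 1.54 ± 0.30 for the dual treatment against LPS (adjusted p = 0.00199).

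**Figure D2:**
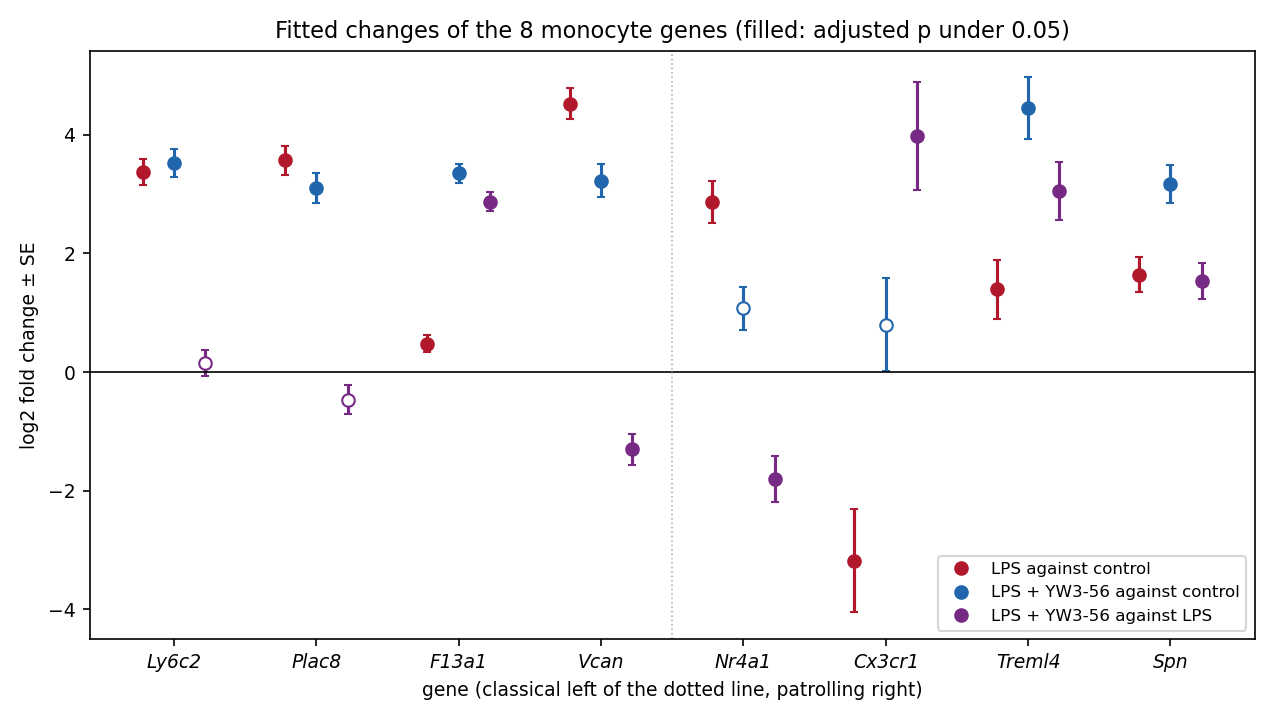
Fitted log2 fold change of each gene, with its standard error as a bar, in the 3 comparisons. Filled points have an adjusted p-value under 0.05. *F13a1* rose by 3.35 after the dual treatment and by 0.48 after LPS alone, while *Ly6c2* rose by 3.52 and 3.37.

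Among the 8 genes, the dual-treated mice differed more in the patrolling than in the classical ones. Mouse 5 had 11.5 times the *Cx3cr1*, 1.96 times the *Nr4a1* and 1.91 times the *Spn* of mouse 2. For the classical genes the ratio of mouse 5 to mouse 2 was 0.987 for *Ly6c2*, 1.13 for *F13a1*, 1.40 for *Plac8* and 0.611 for *Vcan*. Over the 10 other genes of each subset the ratios were less distinct, from 0.433 (*Ccl9*) to 2.13 (*S100a4*) for the classical and from 1.01 (*Dusp16*) to 5.48 (*Cd300e*) for the patrolling genes. The mean log2 CPM of the 4 classical genes minus that of the 4 patrolling genes was -0.13, 0.38 and 0.07 in the control mice and 2.41, 2.44 and 2.61 in LPS mice 1, 6 and 7. It was 2.30 in dual-treated mouse 2 and 0.45 in mouse 5. By this difference alone mouse 2 was close to the LPS mice and mouse 5 to the control mice, and no test was made of it. The difference does not compare levels. In mouse 5 all 8 genes were above the control mean. The lowest was *Nr4a1* at 2.79 times, with *Ly6c2* at 11.4 and *Spn* at 11.9 times. In mouse 2 only *Ly6c2* of the 8 genes lay within the range of the LPS mice. *F13a1* was there at 9.57 times the control mean, against 1.26 to 1.62 times in the LPS mice. *Cx3cr1*, at 39 and 462 counts, differed most between mice 2 and 5.

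**Figure D3:**
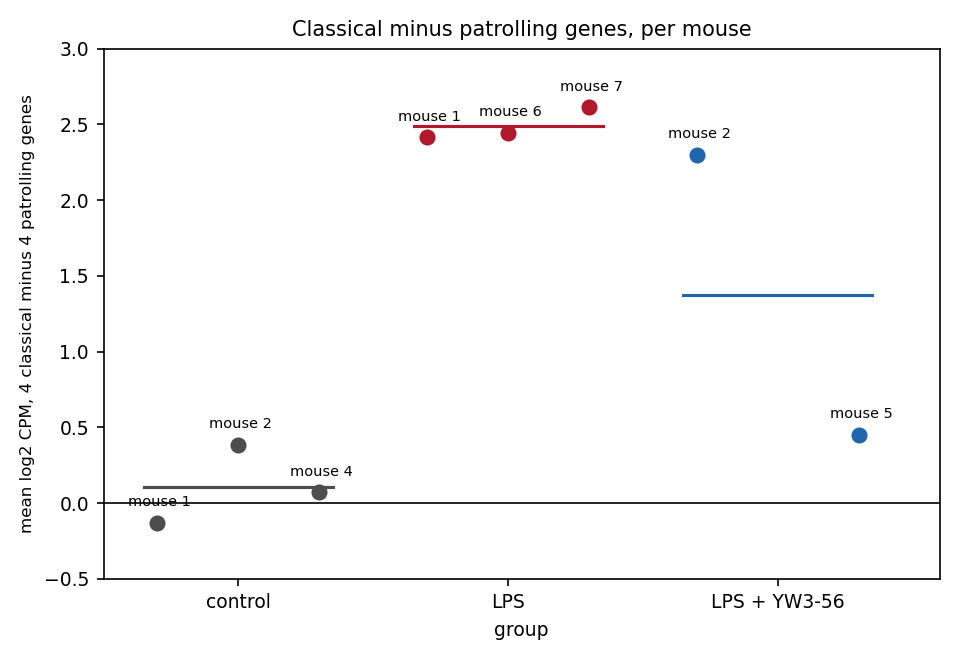
Mean log2 CPM of the 4 classical genes minus that of the 4 patrolling genes in each mouse, with a line at each group mean. The LPS mice lay between 2.41 and 2.61, and the dual-treated mice at 2.30 and 0.45.

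Levels per length of transcript were compared as RPKM, the CPM divided by the kilobases of the gene's joined exons. In control lungs *Nr4a1* had the highest group mean, at 4.90 RPKM, followed by *Plac8* at 3.73, *Ly6c2* at 2.27, *Spn* at 1.99, *F13a1* at 1.49, *Cx3cr1* at 1.36, *Treml4* at 0.661 and *Vcan* at 0.317 RPKM. The mice overlapped between *Nr4a1* and *Plac8*, and between each neighbouring pair from *Ly6c2* to *Cx3cr1*. In LPS lungs the order by mean RPKM began with *Plac8* at 44.3, *Nr4a1* at 35.8 and *Ly6c2* at 23.5, where neighbours overlapped, and went on with *Vcan* at 7.32, *Spn* at 6.20, *F13a1* at 2.08, *Treml4* at 1.74 and *Cx3cr1* at 0.151. There *Vcan* overlapped *Spn*, and *F13a1* overlapped *Treml4*. In dual-treated lungs the mean RPKM was 32.1 for *Plac8* and 26.1 for *Ly6c2*, then 18.0 for *Spn*, 15.2 for *F13a1*, 14.5 for *Treml4* and 10.3 for *Nr4a1*, and 2.98 for *Vcan* and 2.37 for *Cx3cr1*. Neighbours from *Spn* to *Nr4a1* overlapped, as did *Vcan* and *Cx3cr1*.

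Of 10 other genes of classical monocytes, 5 rose and *Ccr2* fell after LPS, with a median log2 fold change of 2.10. Of all tested genes 32.6% rose and 33.9% fell after LPS. After the dual treatment 9.13% were higher and 7.02% lower against control, and 31.7% higher and 27.4% lower against LPS. These shares hold beside each list below. *Ccr2*, the receptor that brings these cells into tissue, was at 21.7, 16.7 and 17.7 CPM in the control mice, 2.31, 2.08 and 1.73 CPM in LPS mice 1, 6 and 7, and 25.1 and 30.5 CPM in dual-treated mice 2 and 5. It fell by 3.19 on the log2 scale after LPS (adjusted p = 1.12e-06), while *Ly6c2* rose in the same lungs. Against LPS it was 3.77 ± 0.19 higher on the log2 scale after the dual treatment (adjusted p = 2.42e-06). *Ifitm6*, an interferon-induced transmembrane gene, had the highest change after LPS, 4.18 ± 0.28. The chitinase-like gene *Chil3*, which had the highest mean CPM of the 10 in each group, was not called in any comparison (adjusted p = 0.676, 0.117 and 0.0987). After the dual treatment 6 of the 10 rose against control, with a median of 1.51, while 9.13% of all tested genes rose. The range ran from *S100a4* at 6.02 ± 1.19, where control libraries had 0.00 to 0.05 CPM, to *Thbs1* at -0.47 ± 0.59, which was not called.

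Of 10 other genes of patrolling monocytes, 3 rose and 4 fell after LPS, with a median log2 fold change of -0.39. These counts lay near the shares of all tested genes, 32.6% and 33.9%. After the dual treatment 6 of the 10 rose against control, with a median of 1.59, and against LPS 7 were higher and 2 lower. The shares of all tested genes were 9.13% higher against control, and 31.7% higher and 27.4% lower against LPS. *Adgre4*, an adhesion receptor gene, was at 1.91, 1.36 and 0.97 CPM in the control mice, at 0.42, 0.40 and 0.45 CPM in LPS mice 1, 6 and 7, and at 15.2 and 48.2 CPM in dual-treated mice 2 and 5. Its log2 fold change for the dual treatment was 4.49 ± 0.46 against control and 6.21 ± 0.53 against LPS (adjusted p = 0.000323 and 1.71e-05). *Cd300e* showed the same order in the dual-treated mice, with 3.68 CPM in mouse 2 and 20.2 CPM in mouse 5, against 1.13 to 1.27 CPM in the control mice. *Ace*, also an endothelial gene, with the highest mean CPM of the 10 over the 8 libraries but not in LPS lungs, fell by 3.74 on the log2 scale after LPS (adjusted p = 1.46e-06). The immunoglobulin receptor gene *Fcgr4* went the other way, with a rise of 3.58 ± 0.24 after LPS. The glycolytic gene *Eno3* had the lowest value for the dual treatment against control, -0.28 ± 0.36 (not called), and the phosphatase gene *Dusp16* for the dual treatment against LPS, -1.44 ± 0.15.

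Among 6 ligands and survival factors of monocytes, 5 rose after LPS, or 4 with library sizes alone. *Ccl2*, the main ligand of CCR2, was at 4.35, 6.80 and 4.18 CPM in the control mice, 145, 50.4 and 49.2 CPM in LPS mice 1, 6 and 7, and 57.8 and 35.9 CPM in dual-treated mice 2 and 5. Its log2 fold change against control was 3.99 ± 0.47 after LPS (adjusted p = 5.56e-05) and 3.19 ± 0.48 after the dual treatment (adjusted p = 0.00252). Further CCR2 ligands were raised as well, *Ccl7* by 2.96 and 3.22, and *Ccl12* by 3.65 and 3.99, in the same order. *Cx3cl1*, which encodes fractalkine, the ligand of CX3CR1, rose by 0.59 ± 0.15 after LPS (adjusted p = 0.00678), while its receptor gene fell. After the dual treatment *Cx3cl1* fell by 0.58 against control (adjusted p = 0.0488) and by 1.17 against LPS (adjusted p = 0.000399). Of the 6 ligands 2 fell after the dual treatment against control, or 1 with library sizes alone. *Csf1*, with the highest mean CPM of the 6 in each group, rose by 0.82 and 1.14, and *Il34* had the lowest change after LPS, 0.14 ± 0.11 (not called).

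Of 8 lineage receptors and transcription factors, 5 rose and *Csf1r* fell after LPS. After the dual treatment 4 rose against control, or 6 with library sizes alone or with DESeq2. *Csf1r*, the receptor of CSF1, was at 100.3, 102 and 119 CPM in the control mice, 57.1, 56.1 and 46.0 CPM in LPS mice 1, 6 and 7, and 160 and 273 CPM in dual-treated mice 2 and 5. Its log2 fold change was -1.01 ± 0.19 for LPS and 1.02 ± 0.20 for the dual treatment, both against control (adjusted p = 0.00100 and 0.00963). *Spi1*, the gene of the myeloid transcription factor PU.1, rose by 2.42 ± 0.22 after LPS and by 2.17 ± 0.24 after the dual treatment. *Cd14*, a coreceptor of LPS, had the highest change after LPS, 4.17 ± 0.25, and the lowest between the dual treatment and LPS, -2.50 ± 0.27. *Klf2* had the highest mean CPM of the 8 over all libraries, though *Cd14* was higher in each LPS lung, and stood at 235 to 262 CPM in control and 464 to 588 CPM in LPS lungs. *Klf4* had the lowest change after the dual treatment, 0.00 ± 0.14 against control (not called).

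*Nr4a1* was set beside its family and other immediate early genes, a list of 11 without *Nr4a1* itself. After LPS 8 of the 11 rose, with a median log2 fold change of 1.86, and 10 of the 11 were lower after the dual treatment than after LPS, with a median of -1.91. Of all tested genes 32.6% rose after LPS, and 27.4% were lower after the dual treatment than after LPS. *Dusp1*, with the highest mean CPM of the 11 over all libraries though only in LPS lungs by group, was at 213 to 229 CPM in control, at 1847, 982 and 1055 CPM in LPS mice 1, 6 and 7, and at 296 and 252 CPM in dual-treated mice 2 and 5. LPS mouse 1 was the highest for *Dusp1*, as for *Nr4a1*. The summed level of the list was 859 to 919 CPM in control, 4908, 2535 and 2743 CPM in LPS and 959 and 893 CPM in dual-treated lungs. *Nr4a2* rose by 2.46 ± 0.34 after LPS, and *Nr4a3* did not pass, at -0.24 ± 0.37. After the dual treatment *Nr4a3* fell by 2.15 against control (adjusted p = 0.0131). The part of these genes' shared course in the values of *Nr4a1* was not tested.

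Lists of other leukocytes did not all move alike. Of all tested genes, 32.6% rose and 33.9% fell after LPS, and 9.13% rose and 7.02% fell after the dual treatment. All 10 neutrophil genes rose after LPS and 7 of the 10 after the dual treatment. They summed to 192 to 336 CPM in the control mice, 2563, 3530 and 2414 CPM in LPS mice 1, 6 and 7, and 1933 and 2536 CPM in dual-treated mice 2 and 5. The calgranulin gene *S100a9* had the highest mean CPM over the 8 libraries, though not in control lungs. *Ly6g* was at 0.14 to 0.83 CPM in control, 10.1 to 26.7 CPM in LPS and 0.91 and 3.86 CPM in dual-treated lungs. Against LPS, however, 4 of the 10 neutrophil genes were higher and 3, among them *Ly6g*, lower after the dual treatment. Their median log2 fold change was 0.02, from -2.96 (*Camp*) to 1.49 (*Retnlg*). In that comparison 31.7% of all tested genes were higher and 27.4% lower. Of 8 interstitial macrophage genes, 2 rose and 3 fell after LPS, near the shares of all tested genes, and 5 rose after the dual treatment. They summed to 264 to 337 CPM in control, 217 to 275 CPM in LPS and 799 and 695 CPM in dual-treated lungs, and the scavenger receptor gene *Stab1* had the highest mean CPM over the 8 libraries, though not in dual-treated lungs. With library sizes alone none of the 8 rose and 4 fell after LPS, and with upper quartile scaling 1 rose and 4 fell. The complement gene *C1qb* rose by 2.40 ± 0.15 on the log2 scale after the dual treatment. Of 8 genes of alveolar macrophages, 1 rose and 4 fell after LPS, and *Marco* rose after the dual treatment, by 2.23 ± 0.35. They summed to 105 to 166 CPM in control, 94.5 to 164 CPM in LPS and 287 and 240 CPM in dual-treated lungs, with *Marco* at the highest mean CPM in each group. Natural killer cell genes, of which *Gzma* had the highest mean CPM in each group, summed to 10.3 to 13.6 CPM in control, 49.8, 40.4 and 19.7 CPM in LPS mice 1, 6 and 7, and 40.3 and 81.7 CPM in dual-treated mice 2 and 5. Of these 6 genes 2 rose and 1 fell after LPS, and 2 rose after the dual treatment. Of 6 T cell genes 2 fell after LPS, or 0 to 4 over the alternatives, and they summed to 10.4 to 15.6 CPM in control, 4.63 to 11.4 CPM in LPS and 6.26 and 7.68 CPM in dual-treated lungs, and *Cd3d* had the highest mean CPM over the 8 libraries, though only in LPS lungs by group. Of 6 B cell genes 2 fell after LPS and *Ighm* rose after the dual treatment, with its high level in mouse 2 alone. After LPS, the 2 of 6 natural killer cell genes that rose lay near the share of all tested genes. So did the 2 of 6 T cell genes and the 2 of 6 B cell genes that fell.

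Genes of red blood cells and endothelium are given because monocytes travel in blood. Of all tested genes, 32.6% rose and 33.9% fell after LPS. After the dual treatment 9.13% were higher and 7.02% lower than in control, and 31.7% higher and 27.4% lower than after LPS. All 6 erythroid genes were lower after the dual treatment than in control, with a median log2 fold change of -2.75, and lower than after LPS, with a median of -2.40. They summed to 1742, 3927 and 2798 CPM in the control mice, 3295, 1891 and 1471 CPM in LPS mice 1, 6 and 7, and 427 and 384 CPM in dual-treated mice 2 and 5, with the globin gene *Hbb-bs* at the highest mean CPM in each group. Of 6 endothelial genes 4 fell and *Ly6c1* rose after LPS, with *Tek* lowest at -3.28 ± 0.24. Against LPS, 5 of the 6 were higher after the dual treatment, with a median of 1.52, and against control 2 were higher and 1 lower. They summed to 2782 to 3226 CPM in control, 1838 to 2387 CPM in LPS and 3666 and 3534 CPM in dual-treated lungs, and *Ly6c1* had the highest mean CPM over the 8 libraries, though not in control lungs. No gene of these lists was without counts in all libraries. Their part in the values of the 8 genes was not tested.

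The genes most alike were found by the root mean square difference of log2 CPM, centred on each gene's mean over the 8 libraries, among 15572 genes with a mean of at least 1 CPM. For *Ly6c2* they were the chemokine gene *Ccl12* (0.27), *Ms4a4a* (0.28) and the metal transporter gene *Slc11a1* (0.32). For *Plac8* they were *Lrrc25* (0.33), *Samsn1* (0.34) and *Ly6c2* itself (0.37). *Vcan* was closest to the interferon regulatory factor gene *Irf7* (0.21), *Steap4* (0.21) and *Ifi204* (0.24). These followed *Vcan* in order, as *Irf7* was at 23.3 to 28.2 CPM in control, 631 to 824 CPM in LPS and 330 and 193 CPM in dual-treated lungs.

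*F13a1* was closest to *Ear6* (0.24), the lectin receptor gene *Clec4a1* (0.35) and *Lst1* (0.38). *Treml4* was closest to *Lst1* (0.48), *Clec4a1* (0.55) and *Spn* (0.58), so that a classical and a patrolling gene shared 2 of their 3 closest genes. *Clec4a1* was at 2.44 to 3.14 CPM in control, 5.87 to 7.22 CPM in LPS and 40.6 and 41.7 CPM in dual-treated lungs. For *Spn* the closest were the receptor genes *Pilrb1* (0.17) and *Pilrb2* (0.20), with the transcription factor gene *Pou2f2* (0.19) between them. *Nr4a1* was closest to the interleukin receptor gene *Il2rb* (0.13), *Fos* (0.27) and *Fam83d* (0.28). *Cx3cr1* had no gene nearer than 0.71 (*Nat8f3*), followed by *Wfdc8* (0.71) and *D430019H16Rik* (0.76). Among the 8 genes, *Cx3cr1* was 2.08 to 3.61 from the other 7.

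The 8 genes lie on 6 chromosomes of GRCm39. *Ly6c2* (chr15:74980003-74988467, minus strand) and *Nr4a1* (chr15:101151980-101172681, plus strand) share one, and *F13a1* (chr13:37051152-37234277, minus strand) and *Vcan* (chr13:89803431-89890814, minus strand) another. *Plac8* is at chr5:100701591-100720111, *Cx3cr1* at chr9:119877749-119898945 and *Spn* at chr7:126731404-126736995, all on the minus strand, and *Treml4* is at chr17:48571323-48582388 on the plus strand. Besides *F13a1*, *Cx3cr1* shares 78 exonic bases (1.67%) with *Gm33858* and *Nr4a1* 656 exonic bases (6.02%) with *Gm63180*, both long non-coding genes of the other strand. Whether counting used strand is not given in the sources used here, so reads of such pairs cannot be told apart. *Gm63180* is not among the genes counted in the files, whereas *Gm30489* and *Gm33858* are.

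Promoter sequences from RefSeq on GRCm38.p6, from 250 bases before to 50 bases after each start, were found for all 8 genes, with 11 starts. They were searched on both strands for AAAGGTCA, the site of NR4A1, for TGACGTCA, the cAMP response element, and for GAGGAAGT, a site of PU.1. Among all 32851 promoters of the table, 1.51%, 1.79% and 3.20% hold them, in this order. Of the 11 windows, 3 held one of these, GAGGAAGT in each case. They are the 2 overlapping windows of *Ly6c2* and 1 of the 2 windows of *F13a1*, and 1 window of each gene is shown. The *Ly6c2* window at chr15:75111888-75112187 (minus strand) has the letters at bases 109 to 116 and 243 to 250, and the *F13a1* window at chr13:37049164-37049463 (minus strand) at bases 265 to 272. They are printed 5′ to 3′ with GAGGAAGT in capitals.
Ly6c2: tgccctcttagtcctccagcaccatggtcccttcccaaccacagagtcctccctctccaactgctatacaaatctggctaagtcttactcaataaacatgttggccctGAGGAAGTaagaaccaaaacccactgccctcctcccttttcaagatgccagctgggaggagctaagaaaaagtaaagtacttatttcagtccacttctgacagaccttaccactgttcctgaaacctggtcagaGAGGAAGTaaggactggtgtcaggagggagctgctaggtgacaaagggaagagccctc
F13a1: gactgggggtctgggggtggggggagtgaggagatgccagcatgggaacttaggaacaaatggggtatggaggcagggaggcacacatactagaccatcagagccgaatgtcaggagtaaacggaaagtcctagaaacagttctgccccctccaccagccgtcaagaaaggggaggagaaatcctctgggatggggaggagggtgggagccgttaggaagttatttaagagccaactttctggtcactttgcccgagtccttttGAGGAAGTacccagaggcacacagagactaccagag
A match describes the letters of the window and is no evidence of binding.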

How the data were processed

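Per the labels and methods, the authors filtered the reads with FastQC 0.11.9 and Trim Galore, aligned them to GRCm39 with HISAT2 2.2.1, and deposited counts per gene from featureCounts 2.0.1 for each mouse. Versions are from the submitters' processing notes. Annotation release, strand setting and multi-mapping are not given in the sources used here. Symbols came from GENCODE M39, which matched 54749 of 55416 identifiers. In R 4.3.3, edgeR 4.0.16 scaled libraries by TMM, kept genes by filterByExpr, and fitted 1 group factor to the 8 libraries for its quasi-likelihood test. P-values were adjusted over 18560 genes. Standard errors were derived from the log2 fold change and F, and 95% intervals used 5 degrees of freedom. Log2 CPM had a prior count of 2. Alternatives were DESeq2 1.42.0, other scalings, filters and call rules, the 2 compared groups only, each mouse left out, and LPS mice 6 and 7 left out. In a simulation of 18560 genes that held 200 with a log2 change of 2, edgeR recovered 92.5% for LPS against control and 90.0% for the dual treatment against control, and DESeq2 94.5% and 92.5%. The 200 were drawn from genes above 1 CPM in control, up and down in equal number, with the spread of the fit. In the data 66.5% of genes were called for LPS against control, so the simulation does not test the scaling there. The dual treatment against LPS was not simulated. Genes named are the 8, fixed ligands and receptors, each list's highest, lowest and most abundant gene (mean CPM over the 8 libraries), and the 3 most alike of each of the 8. *Nr4a2*, of the family of *Nr4a1*, is named outside this rule. *Cd300e*, *Dusp1*, *C1qb*, *Ly6g*, *Clec4a1* levels and the single libraries described apart were picked after values were seen. The genes and lists were chosen with earlier results of these data known.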

Additional observations from a re-analysis of the deposited data

How the results depend on the processing

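Over 381 refits of single genes, 358 kept their direction and their side of the threshold, 14 lost the call, 7 gained it and 2 changed direction. The 2 were *Cx3cr1* for the dual treatment against control without dual-treated mouse 5 (-1.87, against 1.65 without mouse 2) and *Ly6c2* for the dual treatment against LPS without LPS mouse 7 (-0.053, against 0.30 without mouse 6), none of them called. Without LPS mice 6 and 7, 5 of the 8 genes were called for LPS against control, in place of 8, and the lone LPS mouse was assumed to vary like the other groups, as was the lone mouse when a dual-treated one was left out. Leaving out each mouse in turn gave 6 to 8 genes for LPS against control, 6 to 7 for the dual treatment against control and 5 to 7 for the dual treatment against LPS. With library sizes alone, the median log2 fold change of all tested genes moved from -0.01 to -0.29 for LPS against control and from 0.06 to 0.38 for the dual treatment against LPS. The share of called genes that were higher moved from 49.0% to 35.6% and from 53.6% to 71.0%, and 5 of the 8 genes were higher and 1 lower for LPS against control. With at least 10 counts in every library *Cx3cr1* was not tested. Over the other scalings, DESeq2 and the fit without LPS mice 6 and 7, the genes called higher after LPS numbered 5 to 7 of the 10 other classical, 4 to 5 of the 6 ligand and 0 to 2 of the 8 alveolar macrophage genes. The genes called lower after LPS numbered 0 to 4 of the 6 T cell, 1 to 3 of the 6 B cell, 3 to 5 of the 6 conventional dendritic and 2 to 4 of the 8 interstitial macrophage genes. No called gene of the monocyte, ligand, receptor and immediate early lists changed direction under another scaling or DESeq2. No paired analysis was made, because the methods have the mice assigned to groups at random and name no pairing. The causes of these shifts were not tested.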

Other observations

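Conventional dendritic cells share a progenitor with monocytes. Against control, 32.6% of all tested genes rose and 33.9% fell after LPS, and 9.13% rose and 7.02% fell after the dual treatment. Of 6 genes of conventional dendritic cells, 5 fell and *Ccr7* rose after LPS, and 3 fell after the dual treatment, against control. *Clec9a* was at 56.6 to 64.6 CPM in control, 0.52 to 0.78 CPM in LPS and 25.5 and 29.99 CPM in dual-treated lungs. *Cd209a* was at 7.39 to 8.96 CPM in control, 0.64 to 1.25 CPM in LPS and 0.00 and 0.09 CPM in dual-treated lungs, which was the lowest change of the list for the dual treatment, at -7.32 ± 0.60 on the log2 scale. Of 5 tested genes of plasmacytoid dendritic cells, *Bst2* rose after LPS, and *Bst2* rose and *Siglech* fell after the dual treatment, against control. *Siglech* had only 9 to 14 counts in the control libraries and 0 and 1 in the dual-treated ones. With DESeq2 no gene of this list was called lower after the dual treatment than in control. All 5 genes of proliferating cells rose in both comparisons with control, and *Mki67*, with the highest mean CPM in each group, was at 6.66 to 7.68 CPM in control, 25.8 to 40.0 CPM in LPS and 57.9 and 29.3 CPM in dual-treated lungs.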
